A study of Homo sapiens with 5 samples.

Results

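CUL4B encodes cullin 4B, the scaffold of a family of ubiquitin ligases. The data examined here are the RNA polymerase II (RNAPII) profile at its listed transcription start site (TSS) in RPE1 cells. The gene was taken by its symbol from the deposited TSS table, where it was 1 of 9767 genes with values in all 3 libraries (9787 TSSs). No other cullin gene had a TSS among them, so 0 cullins were available for comparison. CUL4B was chosen by its promoter densities in the 3 libraries, which were low in both knockouts. These values are therefore a description, and no test was made of them.

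A cullin holds its ligase together by binding a substrate adaptor at one end and a RING protein at the other. In CUL4 ligases the adaptor is DDB1, which carries exchangeable receptors of the DCAF family, and the RING protein is RBX1. The ligase is switched on by attachment of NEDD8 to the cullin and off by its removal through the COP9 signalosome. CUL4A and CUL4B are closely related, and CUL4B has a longer N-terminal region with a nuclear localisation signal. Its known substrates include replication and cell cycle proteins, and loss-of-function variants of this X-linked gene cause an intellectual disability syndrome. RNAPII that has started transcription commonly pauses shortly downstream of a start, so a promoter in use often gives a ChIP peak there that stands above the gene body.

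RNAPII was mapped by ChIP-seq of its largest subunit, RPB1, in untreated RPE1, human retinal pigment epithelial cells immortalised with hTERT. All groups carried, per the labels, iCas9 and the p53/puro-dKO background. The groups were CFAP20-KO (1 library), CFAP20/CCNC-dKO (1 library) and WT (3 libraries). CFAP20 is a cilium-associated protein whose nuclear roles in transcription and replication the series addresses, and CCNC encodes cyclin C, which belongs to the Mediator kinase module. Each ChIP of CFAP20-KO and WT used 28 µg of chromatin with 40 ng of Drosophila spike-in chromatin, and that of CFAP20/CCNC-dKO used 22 µg with 32.6 ng. The labels name different RPB1 antibodies for the knockouts and for WT, and the number given for WT is also that of the spike-in antibody. Antibody and genotype therefore cannot be told apart in any value set against WT. The sources used here do not say whether each knockout was 1 clone. TSSs of CFAP20 and CCNC were not analysed here, so the genotype labels were not checked against the targeted genes.

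The TSS files held 1 library per genotype, in 10-bp bins over 5 kb on each side, as spike-in normalized coverage. Every value was a whole multiple of 1 step, and isolated stretches of coverage appeared as 2 steps over about 300 bp in CFAP20-KO, 320 bp in CFAP20/CCNC-dKO and 145 bp in WT. Each was taken as 1 read pair, which the sources used here do not state, and every pair count, limit and interval rests on it. If 1 step is 1 fragment, there are more fragments and the intervals are narrower. On the scale of pairs the windows of all TSSs held the equivalent of 420420 read pairs in CFAP20-KO, 590232 in CFAP20/CCNC-dKO and 3382600 in WT. The knockout libraries thus held 12.4% and 17.4% of the WT pairs, and their counts set how finely a single promoter can be read in them. Both shares rest on the fragment lengths taken. The WT length came from only 1168 isolated stretches of 2 steps, against 27166 for CFAP20-KO and 11740 for CFAP20/CCNC-dKO. With 200 bp for every library, the CUL4B promoter would hold 46.8 pairs for WT, not 64.6, and 4.75 for CFAP20/CCNC-dKO, not 2.97. The shares would then be higher and the WT pair counts lower. Of 8 lineage markers, 3 had a measured TSS, and MITF, OTX2 and PAX6 had promoter densities of 0.540, 1.68 and 0.735 in WT. Of 7 genes of mature pigment epithelium, RPE65 and RLBP1 were measured, at 0.418 and 0.387 in WT, and neither passed the filter on promoter density (a mean of at least 0.411 over the 3 libraries). Among markers of other cells, CD3E did not pass the filter. ALB passed it, with 0.508 in CFAP20-KO, 0.424 in CFAP20/CCNC-dKO and 0.354 in WT, where the WT median over all TSSs was 0.407. The neuronal gene SNAP25 also passed it, with 0.150 in CFAP20-KO, 0.121 in CFAP20/CCNC-dKO and 1.05 in WT.

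The listed CUL4B TSS lies on the minus strand of chromosome X at position 120575794 (hg38), under gene identifier ENSG00000158290.16 with a listed length of 49154 bp. GENCODE 44 gives 40 transcripts of the gene, and 4 of them start inside the deposited window. Relative to the listed TSS, with downstream positive, CUL4B-231 starts at -1031 bp and CUL4B-221 at -35 bp. CUL4B-206 and CUL4B-223 start 270 and 284 bp downstream of it, and a RefSeq start lies at 120575532, 262 bp downstream. A further 34 transcripts start more than 10 kb downstream, where RefSeq has its other 3 starts, the nearest at 120561453, 14.3 kb away. The remaining 2 start more than 28 kb upstream, beside the TSS of the neighbouring gene MCTS1. The profile therefore describes the upstream CUL4B start region, and the downstream starts were not analysed here.

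The promoter sequences of both start regions are shown because the RNAPII peak of WT, described below, lies at the first RefSeq start, whereas most annotated transcripts begin farther downstream, where the second lies. Each runs 5′ to 3′ on the minus strand, with 250 bases before the RefSeq start and the first 30 transcribed bases, from the RefSeq promoter table (GRCh38.p14). The first is chrX:120575503-120575782 and the second chrX:120561424-120561703. Capitals mark the motifs searched, on either strand.
CUL4B start 1: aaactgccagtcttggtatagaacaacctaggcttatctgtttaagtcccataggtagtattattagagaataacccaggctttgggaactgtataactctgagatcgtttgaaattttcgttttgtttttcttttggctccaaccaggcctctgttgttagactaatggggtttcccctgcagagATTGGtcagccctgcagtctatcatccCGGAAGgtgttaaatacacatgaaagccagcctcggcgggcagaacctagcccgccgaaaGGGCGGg
CUL4B start 2: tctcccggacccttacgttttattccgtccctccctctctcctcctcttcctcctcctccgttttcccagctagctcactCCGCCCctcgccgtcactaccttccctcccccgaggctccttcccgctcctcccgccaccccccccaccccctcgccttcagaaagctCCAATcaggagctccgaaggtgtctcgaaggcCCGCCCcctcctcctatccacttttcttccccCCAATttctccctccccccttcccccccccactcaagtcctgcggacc

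The first promoter was the poorer in CpG. Over 300 bases it had 45.7% GC and 8 CpG dinucleotides, and the second had 64.7% GC and 16 CpG, against medians of 58.7% and 14 over 35116 RefSeq promoters of that length. Only 22.6% of these promoters had a lower GC content than the first. Its CGGAAG, the core bound by ETS factors, begins 37 bases before the start, and 19.5% of the promoters hold this motif on either strand. A CCAAT box on the opposite strand begins at base -64 (34.6% of promoters hold one), and a GC box, GGGCGG, begins at transcribed base 24 (45.0%). The second promoter has CCAAT boxes at -82 and -18 and GC boxes on the opposite strand at -170 and -50. Neither holds TATAAA (11.5% of promoters), TGACGTCA (1.85%), CACGTG (7.26%) or the palindromic NRF1 motif (1.24%).

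In WT the CUL4B promoter carried a clear RNAPII peak. Its highest 10-bp bin lay 290 bp downstream of the listed TSS at a density of 2.98, or 67 steps. That bin is at position 120575504, 28 bp downstream of the RefSeq start of the first sequence. The mean density of the promoter window, from -200 to 500 bp, was 1.19 (64.6 read pairs), higher than at 77.1% of all TSSs. For nascent RNA, the authors' deposited table lists a BrU-seq signal of 2.68 over its gene body in WT, above 76.8% of the 6306 TSSs with a value, whose median was 0.590.

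In CFAP20-KO this peak was missing, and the bins around the TSS were empty. The promoter density was 0.00258 in CFAP20-KO, 0.299 in CFAP20/CCNC-dKO and 1.19 in WT. These densities correspond to 0.0167, 2.97 and 64.6 read pairs, and 7.68 and 11.8 pairs would have given the WT density in CFAP20-KO and CFAP20/CCNC-dKO. The promoter density of CFAP20-KO thus came from the edge of 1 read pair. At 3 pairs, the limit that a count of 0 allows, it would have been 0.464, or 0.391 times WT. The upper end of the 95% Clopper-Pearson interval of the ratio was 0.499. It is a wider kind of limit than the 3 pairs and also includes the counting error of WT, so the 2 limits are not directly comparable. The CFAP20/CCNC-dKO density was 0.251 times that of WT, with a 95% Clopper-Pearson interval of 0.0499 to 0.772. Limits and intervals cover counting error only, and with 1 library per genotype there is no replicate check between genotypes.

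No order of the knockouts can be read at this depth. The CFAP20/CCNC-dKO density of 0.299 lies under the 0.464 that a count of 0 still allows in CFAP20-KO, and the 95% lower limit of CFAP20/CCNC-dKO over CFAP20-KO was 0.261. Counting each coverage step as a fragment, that limit was 0.738 and the 3-fragment density 0.232, which 0.299 exceeds. After adding a pseudocount of 0.0424 (10% of the overall median promoter density), the log2 ratio was -4.77 for CFAP20-KO over WT, where the median of all promoters above the filter was 0.13. It was -1.85 for CFAP20/CCNC-dKO over WT, with a median of -0.24, and 2.92 for CFAP20/CCNC-dKO over CFAP20-KO, with a median of -0.40. The first and last of these rest on the pseudocount, since CFAP20-KO held under 0.5 pairs.

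**Figure D1:**
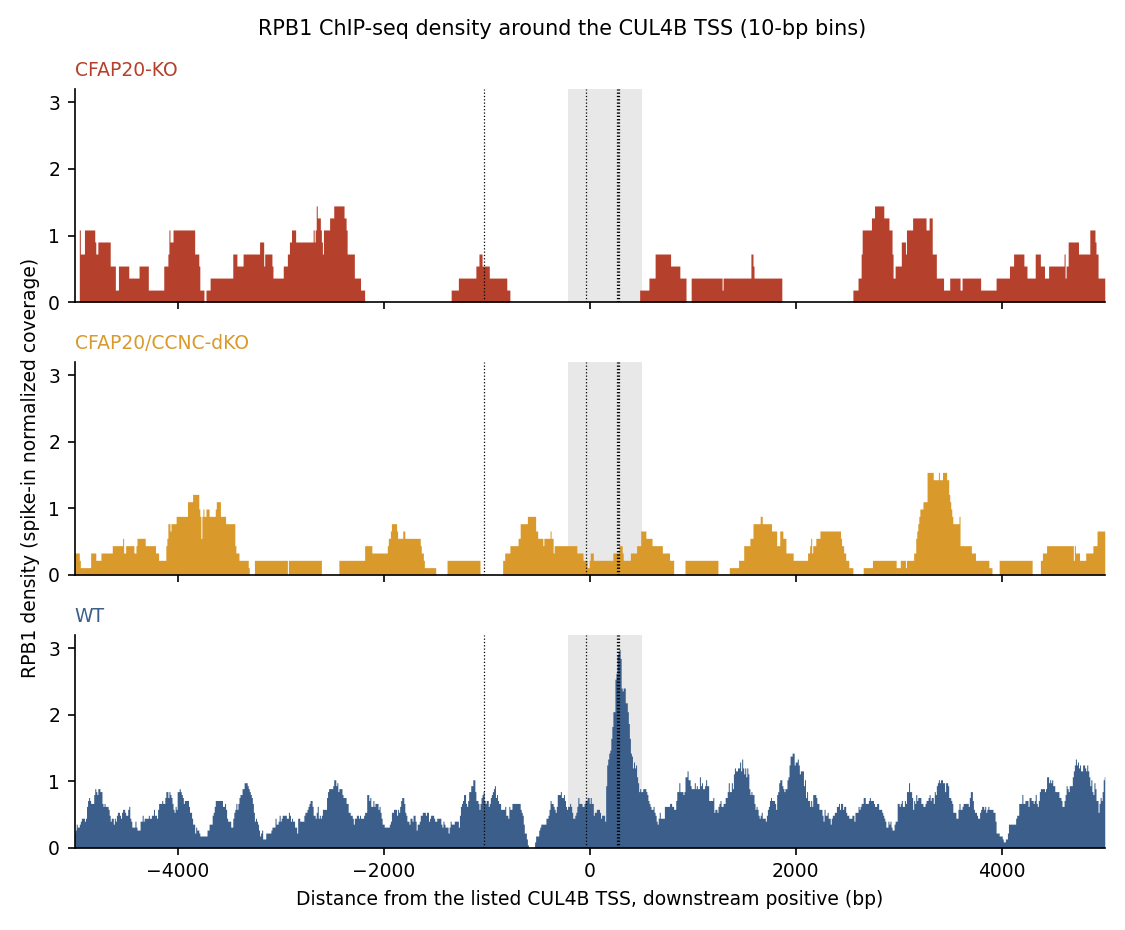
RPB1 ChIP-seq density (spike-in normalized coverage, 10-bp bins, 1 library each) by distance from the listed CUL4B TSS in CFAP20-KO, CFAP20/CCNC-dKO and WT. Grey marks the promoter window and dotted lines the annotated starts; the WT peak of 2.98 at 290 bp faces empty bins in CFAP20-KO and a low, uneven density in CFAP20/CCNC-dKO.

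Bin by bin, the CFAP20-KO library had no coverage from -770 to 480 bp around the TSS, a run of 1260 bp. It spans positions 120575314 to 120576564 and holds the whole of the first sequence shown and 4 of the 5 annotated starts in the window, the exception being CUL4B-231. Further runs without coverage lay from -2180 to -1350 bp (840 bp) and from 1870 to 2550 bp (690 bp). In all, 291 of 1001 bins (29.1%) were empty in CFAP20-KO, 103 (10.3%) in CFAP20/CCNC-dKO and 6 (0.599%) in WT. Of the 291, 278 lay within 2500 bp of the TSS and 13 farther out. The empty bins of CFAP20-KO at this locus thus lay mostly within 2500 bp of the start. The gene was chosen for low promoter density in this library, so the run over the TSS follows from that choice, and the placing of the bins is a description. The longest empty run was 220 bp in CFAP20/CCNC-dKO and 60 bp in WT.

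In CFAP20/CCNC-dKO the promoter was covered, but no peak stood out from its surroundings. The 500 bp downstream of the TSS had a density of 0.00361 in CFAP20-KO, 0.286 in CFAP20/CCNC-dKO and 1.41 in WT. The 500 bp upstream of it had 0, 0.427 and 0.591 in the same order. From 500 to 1000 bp the densities were 0.437, 0.315 and 0.717. WT was thus highest just downstream of the TSS, whereas CFAP20/CCNC-dKO was no higher there than upstream of it. The highest values of the knockouts lay outside the promoter, 1.44 in 20 bins of CFAP20-KO, the nearest at -2390 bp, and 1.54 in 11 bins of CFAP20/CCNC-dKO, from 3280 to 3460 bp.

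Averaged over the wider windows of gene body and flanks, the knockouts and WT were closer than at the promoter. These windows lie outside the one that chose the gene, but in the same libraries. The gene body, from 2000 to 5000 bp, had a density of 0.535 in CFAP20-KO (14.8 pairs), 0.424 in CFAP20/CCNC-dKO (18.1 pairs) and 0.695 in WT (162 pairs). CFAP20-KO was at 0.770 times WT (95% interval 0.420 to 1.31) and CFAP20/CCNC-dKO at 0.610 times WT (0.353 to 0.995). The first interval includes no change, and the second ends just under it. CFAP20/CCNC-dKO was at 0.792 times CFAP20-KO (0.377 to 1.69).

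Single stretches of 500 bp outside the promoter could be as far from WT as the promoter was. From 2000 to 2500 bp the density was 0 in CFAP20-KO, 0.473 in CFAP20/CCNC-dKO and 0.716 in WT, and from -2000 to -1500 bp it was 0, 0.456 and 0.474. From 1000 to 1500 bp it was 0.357, 0.152 and 0.884. Such a stretch held few pairs, at most 4.27 in CFAP20-KO and 6.81 for CFAP20/CCNC-dKO, so these values are coarse.

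The flanks, from 2000 to 4500 bp on both sides, had 0.571 in CFAP20-KO (26.3 pairs), 0.425 in CFAP20/CCNC-dKO (30.2 pairs) and 0.592 in WT (230 pairs). CFAP20-KO stood at 0.963 times WT (0.618 to 1.45), CFAP20/CCNC-dKO at 0.718 times WT (0.474 to 1.05), and CFAP20/CCNC-dKO at 0.746 times CFAP20-KO (0.427 to 1.31). Relative to the median flank of its own library, the locus was at 1.56 (CFAP20-KO), 1.16 (CFAP20/CCNC-dKO) and 1.65 (WT) times. The flank was thus above the library median in all 3, but no interval was made for this. In CFAP20/CCNC-dKO the margin was small for 30.2 pairs, 0.425 against a median of 0.367. The median flank of TSSs above the filter was 0.422 in that library.

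Set against its own flank, the promoter was at 0.00452 times in CFAP20-KO, 0.702 times in CFAP20/CCNC-dKO and 2.01 times in WT. Among the 2243 TSSs with a WT promoter density at least that of CUL4B, the promoter lay below its own flank at 27 in CFAP20-KO (1.20%), 41 in CFAP20/CCNC-dKO (1.83%) and 6 in WT (0.267%). A median promoter of these TSSs held 12.7, 13.8 and 102 pairs. In CFAP20-KO, 2 of them (0.0892%) held under 0.5 pairs, CUL4B and TMEM173, the gene of the DNA-sensing adaptor STING. An empty run at least as long as that of CUL4B reached into the promoter window of 4 of them in CFAP20-KO, CUL4B included, and 1966 had no empty bin there. In CFAP20/CCNC-dKO, 9 were as low as CUL4B or lower, CUL4B included. Since the gene was chosen for these values, its rank is a description.

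TMEM173 had a promoter density of 0.0490 in CFAP20-KO, 1.08 in CFAP20/CCNC-dKO and 1.46 in WT. Its CFAP20/CCNC-dKO value was thus nearer to WT than that of CUL4B was. Among these 2243 TSSs, the next lowest in CFAP20-KO were WDR60 (0.152), a dynein-2 intermediate chain, FAM81A (0.217) and TTC26 (0.250), an intraflagellar transport protein. Of all 4892 genes above the filter, 46 (0.940%) lay at least 4-fold under the median ratio of CFAP20-KO over WT, and 28 (0.572%) under that of CFAP20/CCNC-dKO over WT. CUL4B was among the 46 and not among the 28: its log2 ratio for CFAP20/CCNC-dKO over WT minus the median was -1.61.

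**Figure D2:**
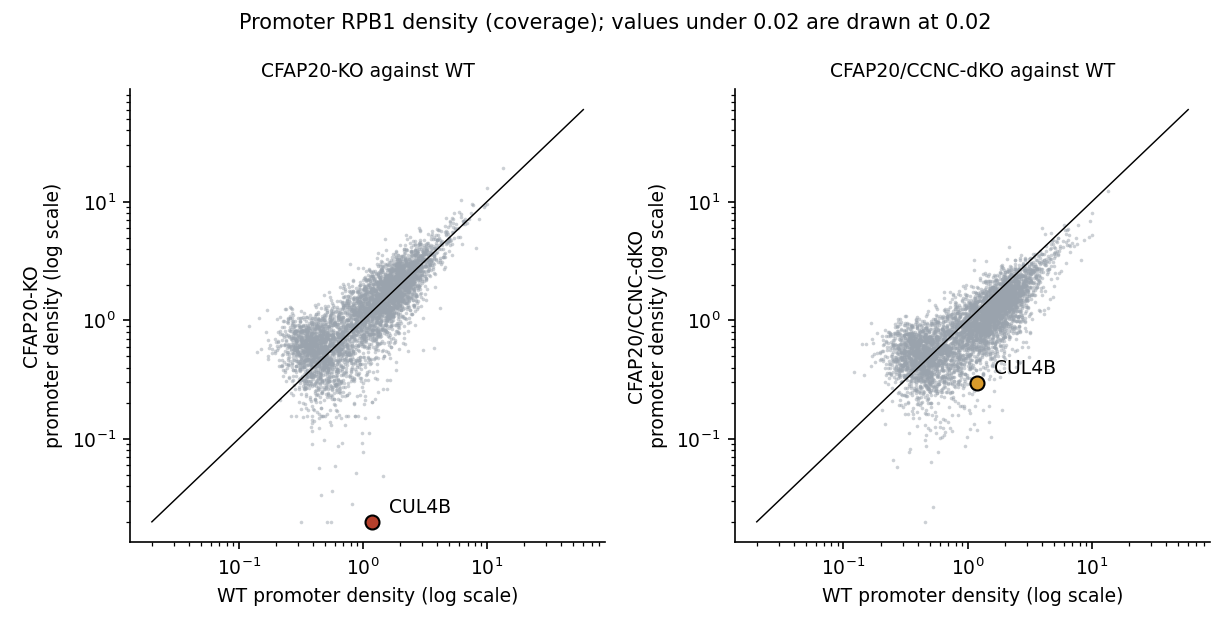
Promoter density of CFAP20-KO (left) and CFAP20/CCNC-dKO (right) against WT for the TSSs above the filter, both axes logarithmic, with the line of equal density. CUL4B, at 0.00258 in CFAP20-KO, 0.299 in CFAP20/CCNC-dKO and 1.19 in WT, lies below most promoters of like WT density in both panels.

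The 5 genes most like CUL4B in both knockout ratios were found among 1721 TSSs with a WT promoter density within 1.5-fold of its own, by distance in the plane of the 2 log2 ratios over 3 libraries. The nearest was LINC00993, a noncoding RNA gene, at 0.45, with a promoter density of 0 in CFAP20-KO, 0.178 in CFAP20/CCNC-dKO and 1.03 in WT. It was below the filter on mean density. TMEM173 followed at 1.61, AC108868.5 at 1.66, CPZ at 1.82 and AGTR1 at 1.89. The last 4 lay farther from CUL4B than the first did, and the ratios share the WT library. The distances rest partly on the pseudocount, since CUL4B and all of the 5 but AGTR1 held under 0.5 pairs in the CFAP20-KO library. At LINC00993 the WT promoter lay below its flank of 1.18, whereas at CUL4B it was 2.01 times its flank. The LINC00993 flank was also lower in CFAP20-KO, at 0.487. The other 4 flanks were 0.338 to 0.403 in CFAP20-KO, near their 0.334 to 0.377 in WT.

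Replicates were available only for WT, in files of 200-bp bins around replication origins. The CUL4B TSS lies 89.7 kb from the centre of a listed origin on chromosome X, inside its window. The promoter stood at 1.85, 2.11 and 2.05 times its own flank in WT replicates 1, 2 and 3 (mean 2.001 ± 0.135 SD, n = 3). In the same bins, taken from the TSS files, the ratio of promoter to flank was 0.0512 in the CFAP20-KO library and 0.791 in that of CFAP20/CCNC-dKO. Both knockout values are lower than the 3 WT values, but the gene was chosen for low promoter density in the knockouts, so this is a description. The knockout promoters held 0.0167 and 2.97 pairs, a counting error that the SD of WT does not cover, and no test was made.

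The WT libraries placed the promoter maximum in neighbouring bins. The highest promoter bin was centred at 293 bp in WT replicate 1 (3.00 times the flank), at 493 bp in replicate 2 (2.94 times) and at 93 bp in replicate 3 (2.73 times). The highest promoter bin reached 0.205 times the flank in the CFAP20-KO library and 1.15 times in CFAP20/CCNC-dKO. Both were the bin centred at 493 bp, and most of its CFAP20-KO coverage lay past 500 bp, outside the promoter window. Replicates 2 and 3 were coarse, with a mean of 15.8 and 9.75 coverage steps per promoter bin against 57.2 in replicate 1. In replicate 3 a bin at 1493 bp, outside the promoter, was higher still, at 3.15 times the flank.

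**Figure D3:**
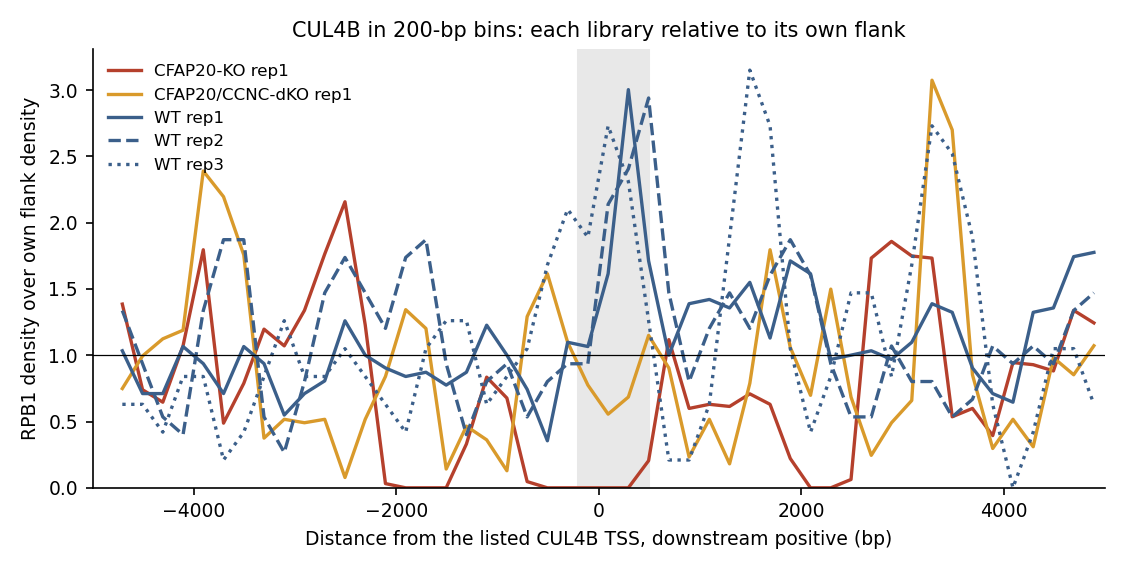
RPB1 density in 200-bp bins relative to the mean flank of the same library, by distance from the listed CUL4B TSS, for CFAP20-KO, CFAP20/CCNC-dKO and 3 WT replicates. In bins centred in the grey promoter window the WT libraries reach 3.00, 2.94 and 2.73 and the knockouts 0.205 and 1.15.

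The 3 nearest listed promoters around CUL4B were not empty in CFAP20-KO. MCTS1, which encodes a translation reinitiation factor and lies 28.2 kb away on the higher-coordinate side, had a promoter density of 0.836 in CFAP20-KO, 0.597 in CFAP20/CCNC-dKO and 1.14 in WT. C1GALT1C1, the chaperone of an O-glycosylation enzyme, 54.4 kb away, had 1.58, 0.426 and 1.07. LAMP2, a lysosomal membrane protein 106 kb away on the other side, had 1.39, 0.766 and 1.05. Over WT the CFAP20-KO values were 0.732, 1.47 and 1.32 times (95% intervals 0.242 to 1.75, 0.677 to 2.89 and 0.572 to 2.68). Those of CFAP20/CCNC-dKO were 0.524, 0.398 and 0.726 times (0.184 to 1.21 for the first, an upper limit of 1.05 for the second and 0.292 to 1.55 for the third). Each of these intervals includes no change.

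Of the 10 nearest listed genes, 5 on each side, 7 were above the filter. The farthest of the 10 lay 3757 kb away. THOC2, a subunit of the THO mRNA export complex 3157 kb away, had 0.709, 0.993 and 0.990 in CFAP20-KO, CFAP20/CCNC-dKO and WT. It was at least 1.5-fold lower in CFAP20-KO than in WT only relative to the median ratio (0.717 times WT, 95% interval 0.210 to 1.84). Its log2 ratio was -0.46, and -0.59 after the median was subtracted. Over all genes, 16.6% were lower by this threshold. In CFAP20/CCNC-dKO over WT, MCTS1, C1GALT1C1 and NKRF were, against 16.7% of all genes. NKRF, a repressor of NF-kappa-B target genes 970 kb away, had 0.949, 0.406 and 0.879 (0.462 times WT in CFAP20/CCNC-dKO, 0.122 to 1.26). UPF3B, a nonsense-mediated decay factor, had 0.712, 0.959 and 0.937, and RP13-192B19.2 had 0.408, 0.377 and 0.470. The 3 genes that did not pass the filter were RHOXF2, with 0, 0.0126 and 0, ATP1B4, with 0.0593, 0.0283 and 0.203, and RP5-1052M9.5, with 0.160, 0.379 and 0.235. On the whole of chromosome X, 43 of the 183 genes above the filter (23.5%) passed this threshold for CFAP20-KO over WT, and 28 (15.3%) did for CFAP20/CCNC-dKO over WT.

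Within the origin window, the MCTS1 promoter stood at 3.48 (CFAP20-KO) and 1.94 (CFAP20/CCNC-dKO) times its flank, and at 2.004, 0.484 and 2.32 times in WT replicates 1, 2 and 3. From the TSS files, its flank was 0.236 in CFAP20-KO, 0.281 in CFAP20/CCNC-dKO and 0.559 in WT replicate 1. Its promoter was 0.822, 0.546 and 1.19 in the same bins and order. The 3.48 thus came with a lower flank, not with a higher promoter than in WT. C1GALT1C1 stood at 2.98 and 1.35 times in the knockouts and at 1.95, 1.63 and 2.77 times in WT. The SD over the 3 WT libraries was 0.983 at MCTS1 and 0.586 at C1GALT1C1, against 0.135 at CUL4B. At MCTS1 the WT values overlapped that of CFAP20/CCNC-dKO.

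Genes of cullin ligases were examined as lists of partners and regulators, not all of them particular to CUL4, and of CUL4 receptors and substrates. Of 61 listed genes, 16 had a measured TSS, and all 16 were above the filter. Their promoter densities ran from 0.689 to 3.40 in CFAP20-KO, 0.563 to 3.34 in CFAP20/CCNC-dKO and 0.523 to 4.52 in WT. Even the lowest held 4.45, 5.59 and 28.4 pairs, so none of them was empty as CUL4B was in CFAP20-KO. In CFAP20-KO over WT, 2 of 16 were at least 1.5-fold lower relative to the median and 1 higher, where all genes gave 16.6% and 15.8%. Their median log2 ratio was 0.04, beside 0.13 over all genes.

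In CFAP20/CCNC-dKO over WT, 3 of 16 were lower and 0 higher, where all genes gave 16.7% and 18.8%, with a median of -0.54 beside -0.24. In CFAP20/CCNC-dKO over CFAP20-KO, 3 were lower and 0 higher, where all genes gave 17.7% and 20.8%, with a median of -0.42 beside -0.40. CUL4B itself was among the lower promoters in both comparisons with WT. Counts of 2 and 3 among 16 are near the shares over all genes. Without centring on the median ratio, 1 of 16 was lower in CFAP20-KO over WT (12.4% of all genes), 8 in CFAP20/CCNC-dKO over WT (28.0%) and 7 in CFAP20/CCNC-dKO over CFAP20-KO (38.5%). On that scale 1, 0 and 0 were higher, where all genes gave 22.3%, 11.3% and 10.7%.

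By role, and relative to the median ratio as in these counts, 0 of 4 core partners were at least 1.5-fold higher or lower in any comparison. RBX1, the RING protein of CUL4 ligases, had a promoter density of 1.91 in CFAP20-KO, 1.94 in CFAP20/CCNC-dKO and 2.07 in WT. RNF7, the RING protein of CUL5 ligases, was at 1.04 times WT in CFAP20-KO, and at 0.795 times WT in CFAP20/CCNC-dKO. CAND1, an exchange factor for cullin ligases, had densities of 1.79, 1.53 and 2.15, and UBA3, a subunit of the NEDD8-activating enzyme, had 1.38, 0.733 and 1.27. UBA3 in CFAP20/CCNC-dKO had the lowest ratio over WT of these 4 genes, 0.575 times (95% interval 0.227 to 1.23). It passes 1.5-fold as it stands and not after the median ratio is subtracted, when its log2 ratio is -0.52.

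Among the DCN1-like genes, which promote NEDD8 attachment, DCUN1D5 had a promoter density of 2.68 in CFAP20-KO, 0.611 in CFAP20/CCNC-dKO and 1.86 in WT. It was 0.329 times WT in CFAP20/CCNC-dKO (95% interval 0.119 to 0.738) and 1.44 times in CFAP20-KO (0.812 to 2.41). DCUN1D1 had 3.40, 3.34 and 4.52. Of the COP9 signalosome, which removes NEDD8, COPS3 had 1.28, 1.28 and 2.05, and was past 1.5-fold lower in CFAP20-KO (0.628 times WT, 0.269 to 1.27). COPS4 had 1.55, 0.563 and 1.32 and COPS7B 0.753, 0.585 and 0.739. COPS4 passed the threshold in CFAP20/CCNC-dKO, at 0.428 times WT (0.145 to 1.00), and the interval for COPS3 includes no change.

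Of the CUL4 receptors, DET1 had a promoter density of 2.46 in CFAP20-KO, 0.597 in CFAP20/CCNC-dKO and 1.99 in WT, a ratio over WT of 0.301 in CFAP20/CCNC-dKO (95% interval 0.107 to 0.678). BRWD3, a bromodomain receptor also on chromosome X, was past 1.5-fold higher in CFAP20-KO, with 0.892, 0.567 and 0.523 (1.71 times WT, 0.565 to 4.25). PHIP had 2.13, 1.17 and 1.96, DCAF4 1.16, 0.899 and 1.24, and DCAF10 2.63, 1.65 and 2.21. Of the substrates, CCNE1, which encodes cyclin E1, was past 1.5-fold lower in CFAP20-KO only relative to the median ratio, with densities of 0.689, 0.635 and 0.993 (0.694 times WT, 0.199 to 1.80). Its log2 ratio was -0.50, and -0.64 after the median was subtracted. PRDX3, a mitochondrial peroxiredoxin, had 2.85, 2.05 and 3.39. DCUN1D5, COPS4 and DET1 passed the threshold in CFAP20/CCNC-dKO over WT and not in CFAP20-KO over WT, whereas CUL4B passed it in both. Set directly against CFAP20-KO, CFAP20/CCNC-dKO was at 0.228 times for DCUN1D5 (95% interval 0.0744 to 0.603), 0.364 times for COPS4 (0.104 to 1.13) and 0.242 times for DET1 (0.0772 to 0.655).

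**Figure D4:**
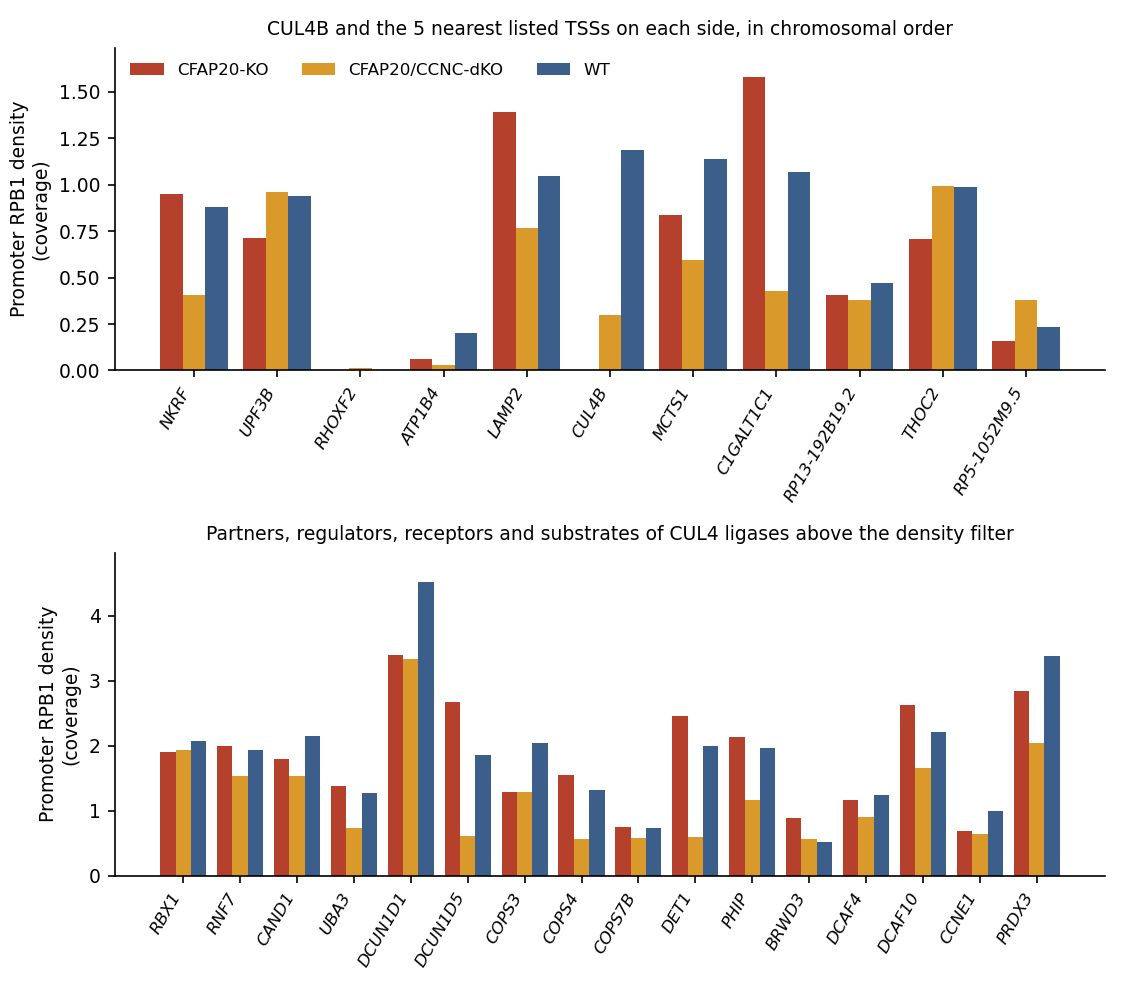
Promoter density (mean coverage from -200 to 500 bp, 1 library per genotype) in CFAP20-KO, CFAP20/CCNC-dKO and WT. The top shows CUL4B and its 10 nearest listed genes. The bottom shows 16 partners, regulators, receptors and substrates of cullin ligases, among them RNF7 of CUL5 ligases. The CFAP20-KO bar of CUL4B, 0.00258, is too low to be seen, whereas the bars of MCTS1, C1GALT1C1 and LAMP2 reach 0.836, 1.58 and 1.39.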

How the data were processed

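The authors deposited RPB1 density as a coverage signal, spike-in normalized per the file names, in 10-bp bins within 5 kb of TSSs (1 library per genotype) and in 200-bp bins within 100 kb of origin centres (3 WT libraries, normalization not given in the sources used here). Alignment was to hg38, per the labels, and the submitters' processing notes name BWA 0.7.17 and STAR 2.7.7a, without saying which made these files, besides HOMER 4.8.2, SAMtools 1.11 and Trim Galore 0.6.5. The authors' TSS table also gave gene lengths and a BrU-seq signal in WT whose scale was not given.

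From these, coverage was averaged over the promoter (-200 to 500 bp), gene body (2000 to 5000 bp) and flank (2000 to 4500 bp, both sides). Read pairs were taken as coverage area over that of an isolated run of 2 steps, and 95% Clopper-Pearson intervals of ratios were made from them. Where a library held under 0.5 pairs, no ratio is given, only the value at 3 pairs and the 95% limit nearer to no change. Calls over all genes used TSSs at or above the median mean promoter density (0.411), 1 per gene, relative to the median log2 ratio. Origin bins were read in the direction of the nearest gene, since WT replicate 1 then correlated with its TSS file over 49 bins (r = 0.95, other direction 0.02; neighbouring bins are not independent). Nothing says whether replicates came from separate cultures. Genes were named as follows: all cullins, list members past 1.5-fold in any comparison and the others by values, the 5 nearest TSSs on each side, and the 5 likest genes. Members and lists were chosen with earlier results of these data known. Of the per-sample columns, 2 were left out as they match no label here. The steps were also run on simulated read pairs, with the outcome not given here. Each simulated pair was built as 2 steps at the fragment lengths found here. The simulation therefore cannot check those lengths or the reading of 2 steps as 1 pair. Python 3.11.15, NumPy 2.4.6, pandas 2.3.3, SciPy 1.17.1 and Matplotlib 3.10.9 were used. 1 marker of other cells is not reported here.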

Additional observations from a re-analysis of the deposited data

How the results depend on the processing

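Of 61 alternatives over 17 results, 0 reversed a direction and 5 moved a value beyond its error or a count beyond 1.5 times. All 5 were counts of promoters at least 1.5-fold lower over the whole series. Several of the rest could not move, so their number does not measure robustness. A fixed fragment length of 200 bp, or counting each read, changes the counts and so the interval of a promoter ratio, but not the ratio itself. The promoter interval of CFAP20-KO over WT has no lower end, and log2 values of -7.45 and -2.14 both counted as unmoved. The cullin counts cover only CUL4B, which was chosen for low density. With all TSSs in place of those above the filter, the counts were 2403 for CFAP20-KO over WT, 2002 for CFAP20/CCNC-dKO over WT and 2372 for CFAP20/CCNC-dKO over CFAP20-KO, in place of 814, 818 and 866. Without centring on the median ratio, they were 1372 for CFAP20/CCNC-dKO over WT and 1881 for CFAP20/CCNC-dKO over CFAP20-KO. CUL4B stayed at least 1.5-fold lower than WT in both knockouts under each alternative for the cullin count.

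The size of the CUL4B promoter ratio for CFAP20-KO over WT rests on the pseudocount and the window. Its log2 value was -4.77 with the pseudocount used, and -7.45 or -2.71 where that was 1% or 50% of the median density. In a window of -1000 to 1000 bp the densities were 0.152 in CFAP20-KO (2.80 pairs), 0.359 in CFAP20/CCNC-dKO (10.2 pairs) and 0.805 in WT (125 pairs), and the log2 ratios over WT were -2.14 and -1.08. The run of CFAP20-KO bins holding at most 1 pair around the TSS was 1610 bp long, in place of 1260 bp for empty bins. Leaving out 1 WT replicate gave a promoter over flank of 1.95 to 2.08. Counting each read (1 step) rather than each pair, an alternative chosen after seeing the data, gave a 95% upper limit of 0.248 in place of 0.499 for CFAP20-KO over WT and an interval of 0.0900 to 0.564 for CFAP20/CCNC-dKO over WT. The density that a count of 0 allows in CFAP20-KO was then 0.232 in place of 0.464. No paired analysis was possible because the genotypes share only replicate number 1 and no test was made.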
